A study of Mus musculus with 8 samples.

Results

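The genes described here are 33 genes of the perichondrium and of fibroblasts, the cells that wrap cartilage and fill connective tissue. The list was given by name and falls into fibrillar collagens (5 genes), other collagens (8), elastic fibre genes (9), adhesive and matricellular proteins (4) and fibroblast markers (7). Of the 33, 32 had an array probe set named to them alone, out of 18193 genes so named on the array, and the brightest probe set stood for each gene. Of these, 30 were bright enough to be tested. No value is given for Fbn1.

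Cartilage proper is built on collagen II and aggrecan. Its outer sheath, the perichondrium, is a fibrous tissue rich in collagen I, which assembles with collagens III and V into thick fibrils, while collagens VI, XII and XIV bind to or link these fibrils. Elastic fibres have a core of elastin on a scaffold of fibrillin microfibrils, and fibulins and microfibril-associated proteins help to assemble them. In the rib, the perichondrium also supplies cells to the growing cartilage and to the bone collar.

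The cells were released from embryonic mouse ribs (strain FVB, E18.5) with collagenase and trypsin, and their RNA was extracted. Embryos of 4 litters were pooled by genotype, so that each litter gave 1 wild-type control pool and 1 pool labelled Hoxd4 transgenic, and each of the 8 pools was hybridised to 1 array. All groups share the strain, the age and the digest. The labels give no promoter or line for the transgene, no number of embryos per pool and no sex. The design asks what overexpressed Hoxd4, a homeobox transcription factor, changes in rib chondrocytes.

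The only probe sets for Hoxd4 are shared with Hoxd3, and the brighter had signals of 27.3, 42.6, 4.10 and 256 in controls and 94.1, 415, 172 and 13.0 in the transgenic pools of litters 1 to 4. It therefore went against the label in litter 4, and groups are called here by their labels. Xist, the noncoding RNA of the inactive X chromosome, had signals of 5778, 9945, 13760 and 8098 in controls and 79.8, 3266, 47.2 and 8209 in transgenic pools, so it was far lower in the transgenic pool of litters 1 to 3 but not of litter 4. Median signals per array lay between 100.5 and 115.

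The arrays carried the markers of both tissues. All 8 chondrocyte markers were tested, and collagen II (Col2a1) had signals between 36480 and 50824. Fibroblast and perichondrium markers were present as well: all 6 were tested, among them Pdgfra, a growth factor receptor of mesenchymal cells (3799 to 4549), and Dpt, the matrix protein dermatopontin (2727 to 3907). Thy1, a surface glycoprotein of fibroblasts, was dim (82.3 to 162). Pi16, a marker of adventitial fibroblasts, and Tcf21, a mesenchymal transcription factor, fell below the brightness limit of 106. Their brightest probe sets had signals of 13.9 to 169 and of 6.29 to 87.4. The groups overlapped, and in each of the 2 genes the transgenic pool was higher in 1 of 4 litters. The matrix genes with a value and Pdgfra, Dpt, Fap, Prrx1 and Thy1 were thus above this limit, the median over all probe sets. Signal above it does not show which cells of the digest made the RNA, so the list's label was not tested.

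Promoter sequence was examined because most of the genes varied together across pools, as described further on. The RefSeq promoter table (GRCm38.p6) held 22 of the 33 genes, and the 250 bases before each gene's start were searched on both strands for 4 motifs. TATAAA, the core of the TATA box, was in 2 of 22 (Col3a1 and Tnc) against 13.0% of all 27025 promoters. CCAAT, the CCAAT box, was in 5 of 22 (34.5% of all), GGGCGG, the GC box bound by Sp1 factors, in 9 of 22 (33%), and TAATTA, a core of homeodomain sites, in 1 of 22 (Prrx1; 4.91%). In the windows printed no motif overlaps another. No motif was in more than 9 of the 22 windows. The windows of Col1a2 and Col3a1 are shown as chains of the main fibrils and those of Col8a1 and Fbln5 for their wide range between litters. They lie at chr6:4505368-4505617 (plus strand), chr1:45311288-45311537 (plus), chr16:57754738-57754987 (minus) and chr12:101819120-101819369 (minus) and end 1 base before the start site, with capitals marking the motifs.
Col1a2: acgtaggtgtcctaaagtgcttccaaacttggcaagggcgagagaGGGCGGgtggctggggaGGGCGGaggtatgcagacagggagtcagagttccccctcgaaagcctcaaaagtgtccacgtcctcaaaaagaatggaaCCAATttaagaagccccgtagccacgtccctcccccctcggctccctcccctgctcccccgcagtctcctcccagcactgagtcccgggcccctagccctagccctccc
Col3a1: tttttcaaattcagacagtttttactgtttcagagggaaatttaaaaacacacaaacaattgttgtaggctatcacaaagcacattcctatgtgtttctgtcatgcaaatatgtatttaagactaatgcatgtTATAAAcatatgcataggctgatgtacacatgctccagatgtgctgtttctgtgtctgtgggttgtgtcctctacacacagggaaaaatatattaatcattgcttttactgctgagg
Col8a1: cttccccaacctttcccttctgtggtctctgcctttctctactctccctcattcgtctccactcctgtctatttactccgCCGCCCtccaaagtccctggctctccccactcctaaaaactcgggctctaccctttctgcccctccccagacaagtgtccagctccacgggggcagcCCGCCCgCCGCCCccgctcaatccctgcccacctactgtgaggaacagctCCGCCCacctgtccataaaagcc
Fbln5: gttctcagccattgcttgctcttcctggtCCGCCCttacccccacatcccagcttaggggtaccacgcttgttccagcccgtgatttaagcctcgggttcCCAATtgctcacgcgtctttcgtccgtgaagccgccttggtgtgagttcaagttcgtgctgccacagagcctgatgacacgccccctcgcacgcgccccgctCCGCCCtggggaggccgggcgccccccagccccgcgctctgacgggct
Col1a2 had GC boxes that start 205 and 188 bases before the start site and a CCAAT box at 109. In Col3a1, whose window had a GC content of 35.2%, TATAAA lay 117 bases before the start. Col8a1 had 4 reverse GC boxes, at 170, 73, 66 and 23 bases, and Fbln5 had 2 of them, at 221 and 48, beside a CCAAT box at 150. The GC content was 62.0% in Col1a2, 60.8% in Col8a1 and 65.2% in Fbln5, against a median of 52.0% over all promoters.

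No difference between the genotype labels was found in these genes. Of the 30 tested, 16 were higher and 14 lower in arrays labelled transgenic (51.2% of all tested probe sets were higher), with a median log2 fold change of 0.01 against 0.00 over all tested probe sets. That count turned on single pools: 9 were higher without the control of litter 1, 26 without the control of litter 2 and 25 without the transgenic pool of litter 1. None passed an adjusted p of 0.05 in limma (0.0% of all 22518 probe sets did), and none had an unadjusted p under 0.05, where 3.29% of all did (0 of 30 with the litter as a block, against 5.54% of all). The lowest adjusted p among them was 0.9997, or 0.89 with the litter as a block. In their brightest probe sets the 95% intervals of all 30, from the fit without a litter block, lay within a 1.5-fold change to either side. So did those of 85.5% of all tested probe sets. With the litter as a block all 30 lay within it too. In the 28 other tested probe sets of these genes the log2 fold change ran from -0.30 to 0.28. None of them had an unadjusted p under 0.05 in limma. Some of their intervals reached beyond 1.5-fold, as for Col8a1 (-0.65 to 0.35), Col14a1 (-0.36 to 0.70), Sparc (-0.69 to 0.098) and Prrx1 (-0.12 to 0.68). In no gene were the control and transgenic signals apart without overlap (2.27% of all). All these values are on a log2(signal + 32) scale and take the labels as given.

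Xist differed between the groups, and with its level as a covariate 23 of the 30 genes were higher and 7 lower, with a median of 0.08. None passed an adjusted p of 0.05 in limma (lowest 0.98), and 2 had an unadjusted p under 0.05 (4.88% of all), Col15a1 at 0.33 (95% interval 0.071 to 0.59) and Col1a1 at 0.32 (95% interval 0.029 to 0.62). In that fit 26 of the 30 intervals lay within a 1.5-fold change, those of Col1a1, Col8a1, Col15a1 and Thy1 reaching beyond it. The interval of Col8a1 also did so without any one of the controls of litters 1 and 4 and the transgenic pools of litters 2, 3 and 4, and that of Thy1 without both pools of litter 1.

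**Figure D1:**
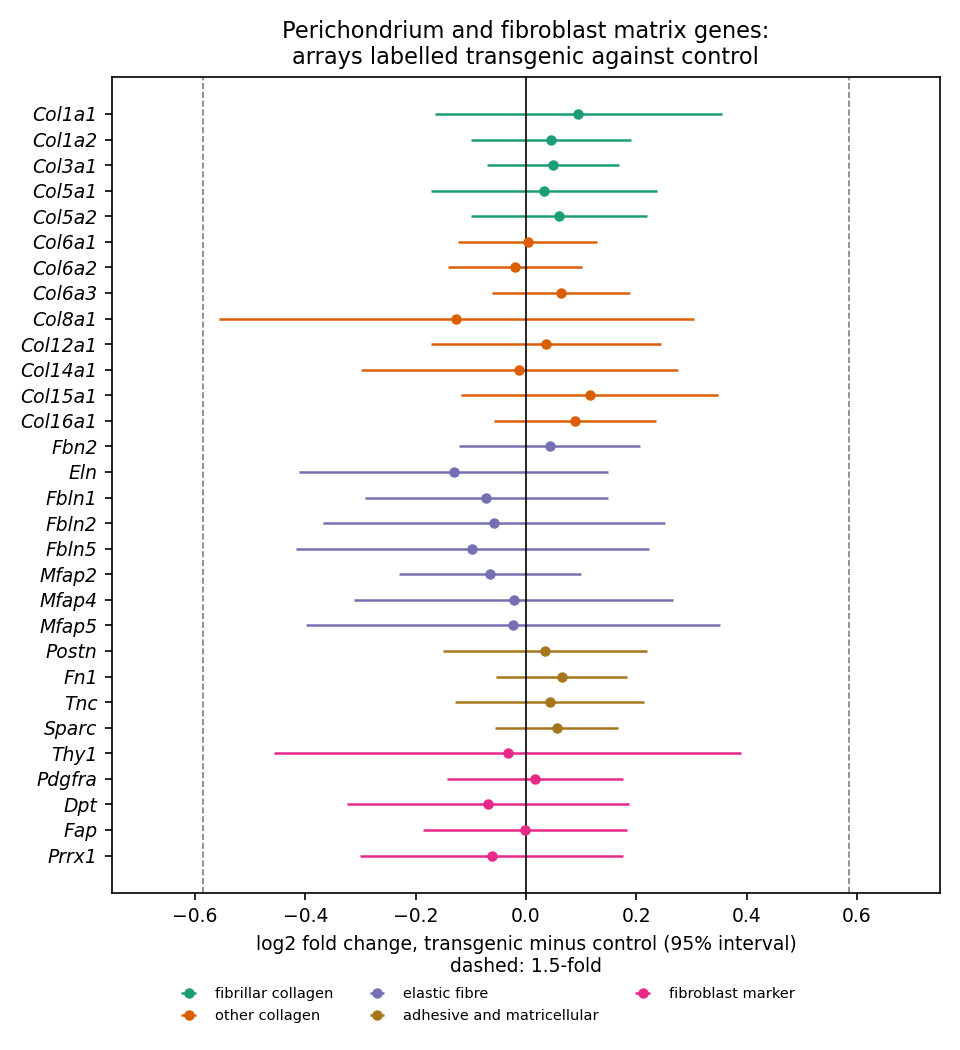
Fitted log2 fold change of the 30 tested genes, arrays labelled transgenic minus control (points), with 95% intervals (bars), coloured by class; the dashed lines mark a 1.5-fold change. Every interval includes 0 and lies within the dashed lines, the widest being that of Col8a1.

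The fibrillar collagens had signals between 12204 and 43293, and all 5 estimates were slightly above 0. Col1a1, a chain of collagen I, had signals of 20482, 25588, 25915 and 21754 in the controls of litters 1 to 4 and of 19377, 31651, 24515 and 25577 in the transgenic pools. The groups overlapped, with means of 23435 ± 2729 (SD, n = 4) and 25280 ± 5037 (SD, n = 4). The log2 difference was 0.09, with a 95% interval of -0.16 to 0.35. Col1a2, its partner chain, was at 0.04, and Col3a1, the single chain of collagen III, at 0.05. Col5a1 and Col5a2, chains of collagen V, which sets fibril diameter, were at 0.03 and 0.06.

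Among the other collagens, 5 of 8 estimates were above 0, from -0.13 to 0.12. Col6a1, Col6a2 and Col6a3, which form the beaded filaments of collagen VI around cells, were at 0.00, -0.02 and 0.06. Col12a1 and Col14a1, fibril-associated collagens, were at 0.04 and -0.01. Col15a1, a collagen next to basement membranes, had the highest estimate, 0.12 (95% interval -0.12 to 0.35), which was 0.034 without the transgenic pool of litter 4. Col16a1, another fibril-associated collagen, was at 0.09 (95% interval -0.06 to 0.24) with the smallest unadjusted p of the list, 0.21. Col8a1, a short-chain network collagen, was lower in the transgenic pool of all 4 litters, by -0.13 (95% interval -0.56 to 0.30). In litter 1 the pools differed little, at 1548 and 1545. With the litter as a block its unadjusted p in limma was 0.067, and the smallest of the list in that fit was 0.064, for Eln.

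Of the 8 tested elastic fibre genes 7 had estimates below 0, with a class median of -0.06. Eln, elastin itself, had signals of 3928, 5197, 4671 and 4212 in controls and of 3491, 5232, 4560 and 3343 in transgenic pools. The lowest 2 of the 8 values were transgenic, those of litters 4 and 1, but the groups overlapped, and the log2 fold change was -0.13 (95% interval -0.41 to 0.15). With 1 pool left out it ran from -0.25, without the transgenic pool of litter 2, to -0.035, without that of litter 4. Fbln5, Fbln1 and Fbln2, fibulins of the elastic fibre and basement membrane, were at -0.10, -0.07 and -0.06. Mfap2, Mfap4 and Mfap5, microfibril-associated proteins, were at -0.06, -0.02 and -0.02. Fbn2, the fibrillin of developing tissues, was at 0.04.

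The 4 adhesive and matricellular genes were at 0.03 to 0.07. Fn1, fibronectin, averaged 26466 ± 1632 (SD, n = 4) over the control pools. Its transgenic pools averaged 27653 ± 335 (SD, n = 4), and it was higher there in 4 of 4 litters, by 0.07 (95% interval -0.05 to 0.18). Sparc, a collagen-binding glycoprotein of bone and fibroblasts, was at 0.06, Tnc, tenascin C, at 0.04 and Postn, periostin of the perichondrium and periosteum, at 0.03. Of the fibroblast markers, Pdgfra was at 0.02, Fap, a surface protease, at -0.002, Thy1 at -0.03, Prrx1, a homeobox gene of limb and body wall mesenchyme, at -0.06 and Dpt at -0.07. In the fit without a brightness limit Pi16 was at -0.22 (95% interval -1.06 to 0.63) and Tcf21 at -0.50 (95% interval -1.21 to 0.21). These 2 intervals reach beyond a 2-fold change, so dim members were not bounded like the others.

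The litters, by contrast, differed. Most of these genes were lower in both pools of litter 1 than in any other pool: this held for 20 of the 30 tested, where 8.84% of all tested probe sets did so, and both pools of litter 1 were the highest of 8 for 0 (5.80% of all). Litter 1 had the lowest mean of the 4 litters in 27 of 30 genes, while litter 2 had the highest in 17, litter 3 in 11, litter 4 in 1 and litter 1 in 1, Sparc. For these counts of litter means no share over all tested probe sets was taken. In an F test of litters beside genotype in limma, 18 of 30 had an unadjusted p under 0.05 (14.6% of all) and 2 passed an adjusted p of 0.05 over all probe sets (0.484% of all). This comparison and these counts were chosen after the values had been seen. The labels do not say whether the pools of a litter also shared a day of dissection, so litter and preparation cannot be told apart. In bulk RNA a change in the mix of cells and a change in RNA per cell, in fibroblasts or in other cells, cannot be told apart either.

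**Figure D2:**
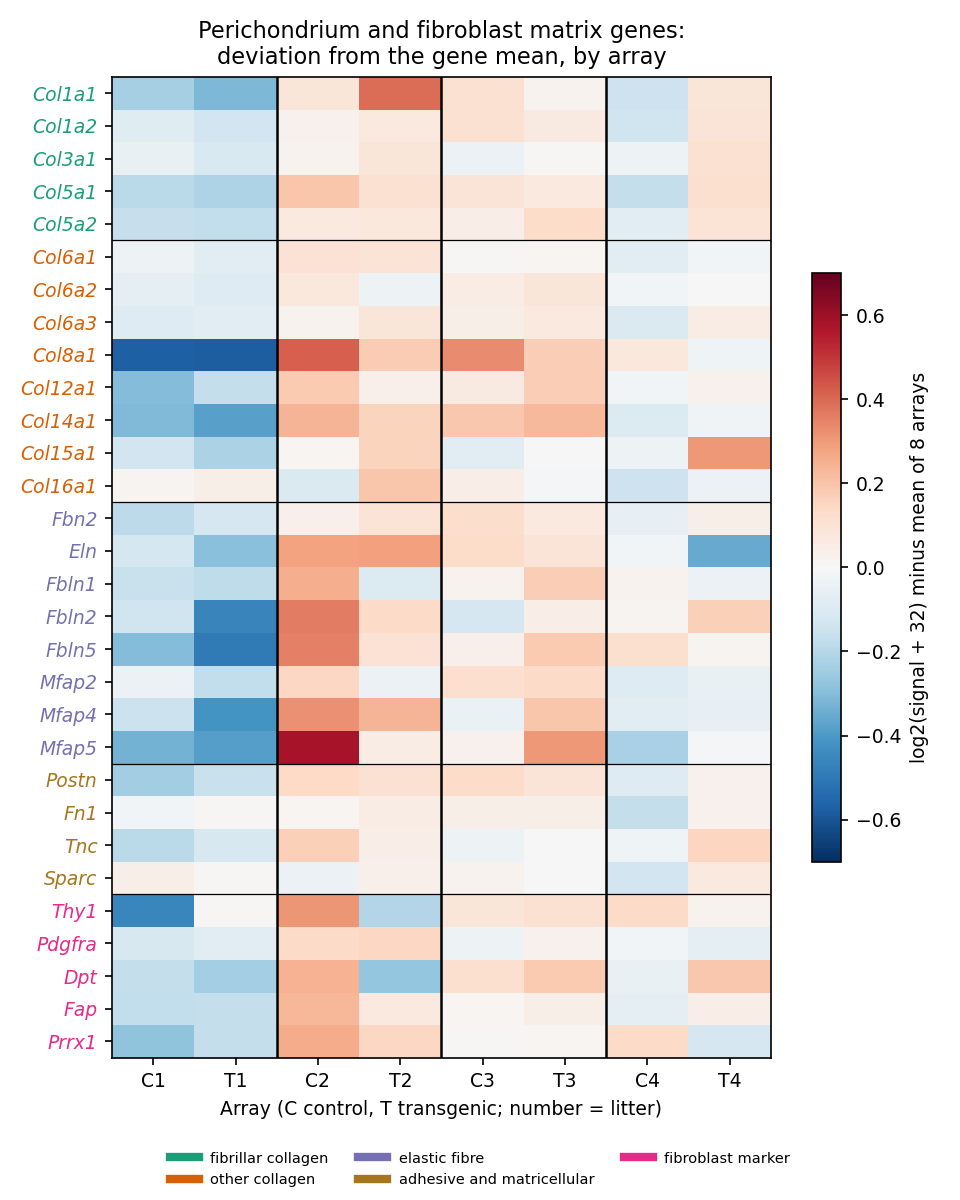
Deviation of log2(signal + 32) from the mean of the 8 arrays for the 30 tested genes (rows, names coloured by class) in each array (columns, C control and T transgenic, with the litter number). Both columns of litter 1 are blue for most genes, most deeply for Col8a1, while Col16a1, Fn1 and Sparc stay near 0 there.

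Col8a1 and Col14a1 were the 2 genes past the adjusted threshold. Col8a1 had signals of 1548, 3113, 2921 and 2439 in controls of litters 1 to 4 and of 1545, 2630, 2615 and 2270 in transgenic pools. Litter 1 was thus far below the rest in both pools, and the litter means differed by 1.83-fold between litters 2 and 1 (limma adjusted p = 0.00348). Col14a1 had signals of 8636, 12605, 12199 and 10012 in controls and of 8195, 11911, 12525 and 10525 in transgenic pools. Its pools followed the same order of low litter 1, middle litter 4 and high litters 2 and 3, with a 1.47-fold range of litter means (limma adjusted p = 0.0115). Without litter 1 neither passed, and 0 of the 30 did. In that fit of the other 3 litters 5 of 30 had an unadjusted p under 0.05 (9.33% of all).

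**Figure D3:**
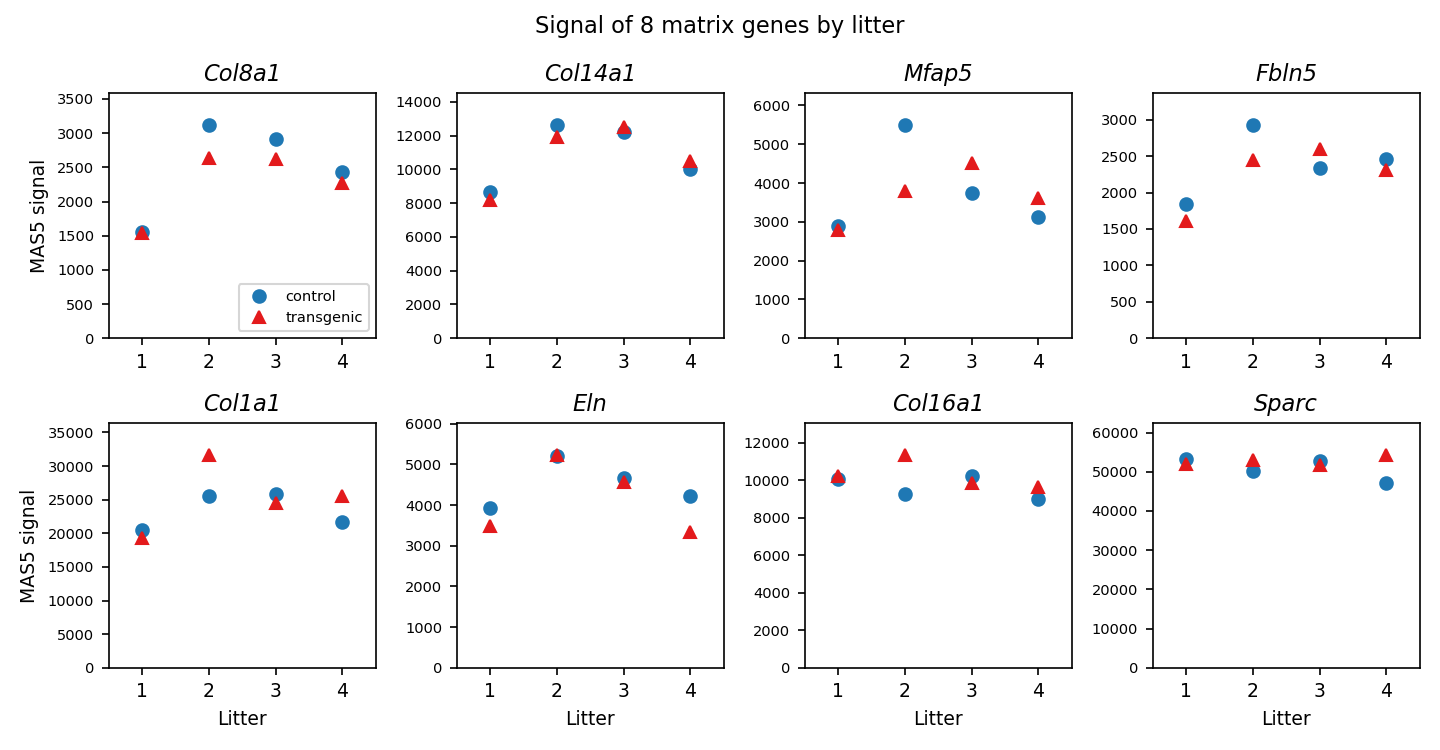
MAS5 signal (vertical axes, from 0) of 8 genes by litter, 1 control pool (circle) and 1 transgenic pool (triangle) per litter. In Col8a1, Col14a1, Mfap5, Fbln5 and Col1a1 both pools of litter 1 lie lowest, whereas Col16a1 and Sparc show no such step.

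The elastic fibre class had the most genes with an unadjusted litter p under 0.05, 7 of 8. Mfap5 had signals of 2902, 5484, 3737 and 3128 in controls and of 2799, 3803, 4521 and 3624 in transgenic pools, a 1.60-fold range of litter means (limma adjusted p = 0.14). Its pools of litter 2 lay far apart, the control being the highest of all 8. Fbln5 had signals of 1845, 2921, 2337 and 2464 in controls and of 1610, 2449, 2592 and 2310 in transgenic pools, a 1.54-fold range (limma adjusted p = 0.058). Eln was low in litters 1 and 4 and had a 1.41-fold range (limma adjusted p = 0.062). Mfap4, Fbln2, Fbn2 and Mfap2 ranged by 1.48-fold, 1.46-fold, 1.19-fold and 1.17-fold, with unadjusted p values of 0.0015, 0.012, 0.025 and 0.039.

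Among fibrillar collagens Col1a1 had the widest range of litter means, 1.43-fold (limma unadjusted p = 0.0015, adjusted p = 0.096, and past the threshold under quantile normalization and without litter 3), and Col5a1 and Col5a2 followed with 1.28-fold and 1.19-fold. Postn, at 28189, 36665, 36450 and 31265 in controls and 29885, 35955, 35456 and 33994 in transgenic pools, had its lowest values in litter 1 in both groups, with a 1.251-fold range (limma adjusted p = 0.095). Prrx1, Fap and Pdgfra ranged by 1.35-fold, 1.249-fold and 1.18-fold with unadjusted p values of 0.010, 0.014 and 0.045. Of these only Col1a1 passed the adjusted threshold in its brightest probe set under any setting tried for the litter test.

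In the brightest probe set, Sparc, Col16a1 and Fn1 were the genes in which litter 1 did not have the lowest mean. Sparc had signals of 53141, 50246, 52656 and 47106 in controls and of 52002, 53051, 51637 and 54275 in transgenic pools, with a 1.04-fold range of litter means. Col16a1 had signals of 10065, 9248, 10240 and 8982 in controls and of 10194, 11334, 9834 and 9650 in transgenic pools, a 1.10-fold range. Fn1 had a 1.08-fold range and was lowest in litter 4, but in its other tested probe set, at a mean signal of 2727, litter 1 reached 83.6% of the rest (limma adjusted p = 0.30 for litters). Across pools, Sparc, Col16a1 and Fn1 had the lowest median correlation with the other genes: -0.03, 0.03 and 0.35. Further genes had litter 1 lowest without an unadjusted litter p under 0.05. Col1a2, Col3a1, Col6a1, Col6a2 and Col6a3 had ranges of 1.097-fold to 1.145-fold (limma unadjusted p 0.11 to 0.24). Col15a1, Fbln1, Dpt and Thy1 had ranges of 1.203-fold to 1.275-fold (limma unadjusted p 0.11 to 0.65).

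The size of the litter step depended on the probe set. Of 19 genes with more than 1 tested probe set, 17 were below their mean in litter 1 in the next brightest, and in 12 the step was deeper there than in the brightest. No share over all genes was taken beside these counts. Col3a1 in its brightest probe set, at a mean signal of 40219, was 93.1% as bright in litter 1 as in the other litters, with an unadjusted litter p of 0.24. In its other one, at 9047, litter 1 reached 76.1% of the rest (limma adjusted p = 0.039). Col5a2 went likewise from 85.5% at a mean of 22270 to 76.4% at 9984 (limma adjusted p = 0.047). Some genes went the other way, among them Col1a1, with 77.2% in the brightest and 95.5% in its second probe set, and Fbn2, with 86.7% and 100.3%. Signals on these arrays ended at 55564, and the brightest probe sets of Sparc, Col3a1, Col1a2 and Postn had means above 30000. In these litter 1 was at 102.1%, 93.1%, 90.2% and 83.05% of the rest. Whether brightness had a part in the size of the step was not tested.

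The genes varied together across pools. Over the 435 pairs of the 30 genes the median Pearson r over 8 arrays was 0.66, and 92.9% of pairs were above 0, against a median of 0.00 and 50.1% over all pairs of 11013 tested genes. Among the 4251 genes with a mean signal above 1000 the median was 0.01. Pairs within a class had a median r of 0.69 and pairs of different classes one of 0.65. By class, fibrillar collagens had the highest median with one another, 0.82, elastic fibre genes 0.72, fibroblast markers 0.66, other collagens 0.62 and adhesive and matricellular genes 0.38. These values are descriptions, since the arrays share litters. With each litter's mean removed the median r fell to 0.24 (0.50 within classes, 0.19 between). That value rests only on the difference between the pools of each litter. Without both arrays of litter 1 the median r was 0.42. Without both arrays of litter 2, 3 or 4 it was 0.67, 0.69 or 0.77, so of the 4 litters leaving out litter 1 lowered it, and 82.3% of pairs were still above 0 then.

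**Figure D4:**
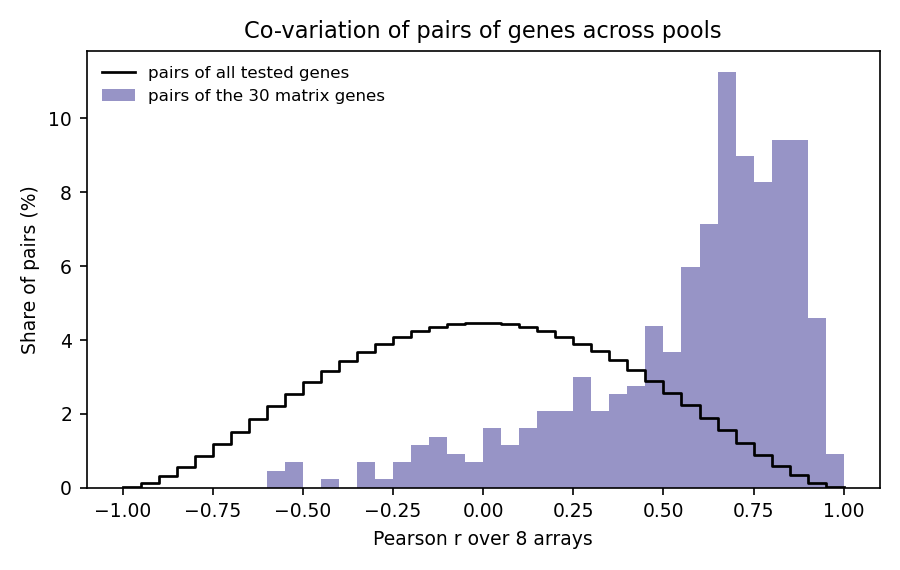
Share of gene pairs (vertical axis, percent) by Pearson r over the 8 arrays (horizontal axis), for pairs of the 30 matrix genes (bars) and for all pairs of tested genes (line). The bars crowd to the right, with a median of 0.66, and the line is centred on 0.00.

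For 8 pairs the correlation over the 8 pools was tested with an exact two-sided permutation test and adjusted over the 8. These were pairs of chains or fibre partners, with Col1a1 and the cartilage collagen gene Col2a1 as a contrast. Col1a1 with Col1a2 had r = 0.81 (exact permutation p = 0.012, adjusted p = 0.033) and rho = 0.76 (exact permutation p = 0.037). Without the 2 pools farthest from the median of Col1a1 r was 0.90 (exact permutation p = 0.044). Col1a1 with Postn had r = 0.84 (exact permutation p = 0.0078, adjusted p = 0.033) and rho = 0.86 (exact permutation p = 0.011), and r was 0.95 without the 2 farthest pools. The p-values over 6 pools are not adjusted. The adjusted p of the first rose above 0.05 without any one of the controls of litters 1, 2 and 4 and the transgenic pools of litters 1 and 3 (r 0.74 to 0.92 over all 8 omissions). That of the second did so without any one of the controls of litters 1 and 4 and the transgenic pools of litters 1 and 3 (r 0.80 to 0.93).

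Col5a1 with Col5a2 had r = 0.92 (exact permutation p = 0.0081, adjusted p = 0.033) and rho = 0.69 (exact permutation p = 0.069), and r was 0.81 (exact permutation p = 0.12) without the pools of litter 1, which were the 2 farthest. Col1a1 with Col3a1 had r = 0.80 (exact permutation p = 0.018, adjusted p = 0.035) and rho = 0.67 (exact permutation p = 0.083), and r was 0.57 (exact permutation p = 0.25) without the 2 farthest pools. The p-values over 6 pools passed 0.05 in neither, with r still 0.81 in the first and lower in the second. With 1 pool left out, the adjusted p of the collagen V pair rose above 0.05 without the controls of litters 1 or 4 or the transgenic pool of litter 1 (r 0.89 to 0.95). That of Col1a1 with Col3a1 did so without any one pool other than the control of litter 3 and the transgenic pool of litter 4 (r 0.70 to 0.90).

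Of the pairs that did not pass after adjustment, Col6a1 with Col6a3 had r = 0.76 and rho = 0.67 (exact permutation p = 0.040 and 0.083, adjusted p of r = 0.064; r = 0.87 without the 2 farthest pools). Eln with Fbln5 had r = 0.70 and rho = 0.67 (exact permutation p = 0.050 and 0.083, adjusted p of r = 0.067; r = 0.75 without them). Col6a1 with Col6a2 had r = 0.53 and rho = 0.67 (exact permutation p = 0.18 and 0.083, adjusted p of r = 0.18; r = 0.83 without them). Col1a1 with the cartilage collagen gene Col2a1 had r = 0.57 and rho = 0.60 (exact permutation p = 0.14 and 0.13, adjusted p of r = 0.16; r = 0.54 without them). The permutations treat the 8 pools as exchangeable, although each litter gave 2. With litter means removed the 2 pools of a litter become mirror values, so a permutation over 8 pools is no valid test there. As a description, Col1a1 with Col1a2 then had r = 0.75 and Col1a1 with Postn r = 0.26.

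Other genes of the same matrix, taken from lists of their own, gave no genotype difference either. Of 14 other noncartilage collagens tested, 8 were higher and 6 lower (median log2 fold change 0.03), with 0 past the adjusted threshold in limma and 1 at an unadjusted p under 0.05, Col25a1, a membrane collagen, at 0.22. Of 34 other elastic fibre and fibroblast matrix genes, 18 were higher and 16 lower (median 0.01), with 0 past the adjusted threshold and 1 at an unadjusted p under 0.05, Efemp1, fibulin-3, at -0.40. Of 28 regulators of fibroblasts 13 were higher and 15 lower (median -0.02), with 0 at an unadjusted p under 0.05. The smallest p among those belonged to Twist1, a mesenchymal transcription factor, at -0.23 (unadjusted p = 0.083).

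In the litter comparison 19 of those 34 matrix genes had an unadjusted p under 0.05 (14.6% of all tested probe sets), 1 passed the adjusted threshold (0.484% of all), and 17 had both pools of litter 1 lowest (8.84% of all). The one past the threshold was Tnn, tenascin N of the periosteum (limma adjusted p = 0.0062). Of the 28 regulators 8 had an unadjusted p under 0.05 and 1 passed, Ebf2, an early B cell factor family gene (limma adjusted p = 0.047). Tnn and Ebf2 are named here after their values had been seen. Of the other collagens 3 of 14 had an unadjusted p under 0.05 and 0 passed the adjusted threshold, and 2 had both pools of litter 1 lowest, beside 14.6% and 8.84% of all. The 34 also held 3 genes with both pools of litter 1 highest (5.80% of all).

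Marker lists of other cell types were read per pool as the median deviation of their genes from the mean of 8 arrays. The 30 matrix genes were at -0.16 and -0.17 in the control and transgenic pool of litter 1, 0.16 and 0.09 in litter 2, 0.04 and 0.07 in litter 3 and -0.06 and 0.03 in litter 4. The 8 chondrocyte markers were at 0.03 and 0.05 in litter 1 and between -0.11 and 0.04 elsewhere, so as a list they were not low there, although Col2a1 itself had a litter 1 deviation of -0.14. Skeletal muscle markers (6 of 6 tested) were at -0.26 and -0.37 in litter 1 and between -0.19 and 0.25 elsewhere. Macrophage markers (3 of 4 tested) were at -0.66 and -0.53 in litter 1, with 0.80 and 0.13 in litter 2, -0.10 and 0.71 in litter 3 and -0.43 and -0.24 in litter 4.

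Erythroid markers (3 of 4 tested) were at -0.32 and -0.76 in litter 1 and -0.16 and -0.26 in litter 2, but at 0.69 and 0.31 in litter 3. Of these 3 genes 2 passed the adjusted litter threshold in limma, the globin Hbb-b2 (adjusted p = 0.0025) and Alas2, an enzyme of heme synthesis (adjusted p = 0.0032). Endothelial markers (4 of 4 tested) were at -0.06 and -0.27 in litter 1. Smooth muscle and pericyte markers (6 of 6 tested) were at 0.07 and -0.11 there. Of tendon markers 2 of 3 were tested, and Tnmd, tenomodulin, had a deviation of -0.38 in litter 1, with an adjusted p of 0.0072 for litters in limma. The other, the transcription factor Mkx, had a deviation of -0.069 (limma adjusted p = 0.97 for litters), with its highest signal of all 8 in the transgenic pool of litter 1, and the dim Scx one of 0.073. Of osteoblast markers 2 of 5 were tested. Ibsp, with signals between 529 and 925, had a deviation of 0.09 in litter 1, and Sp7 one of 0.02. The litter 1 pools of Ibsp lay apart, at 850 in the control and 620 in the transgenic pool. Mesothelial markers had no tested gene (0 of 4), and their signals stayed between 6.33 and 104. The part of these cell types in the litter difference was not tested.

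**Figure D5:**
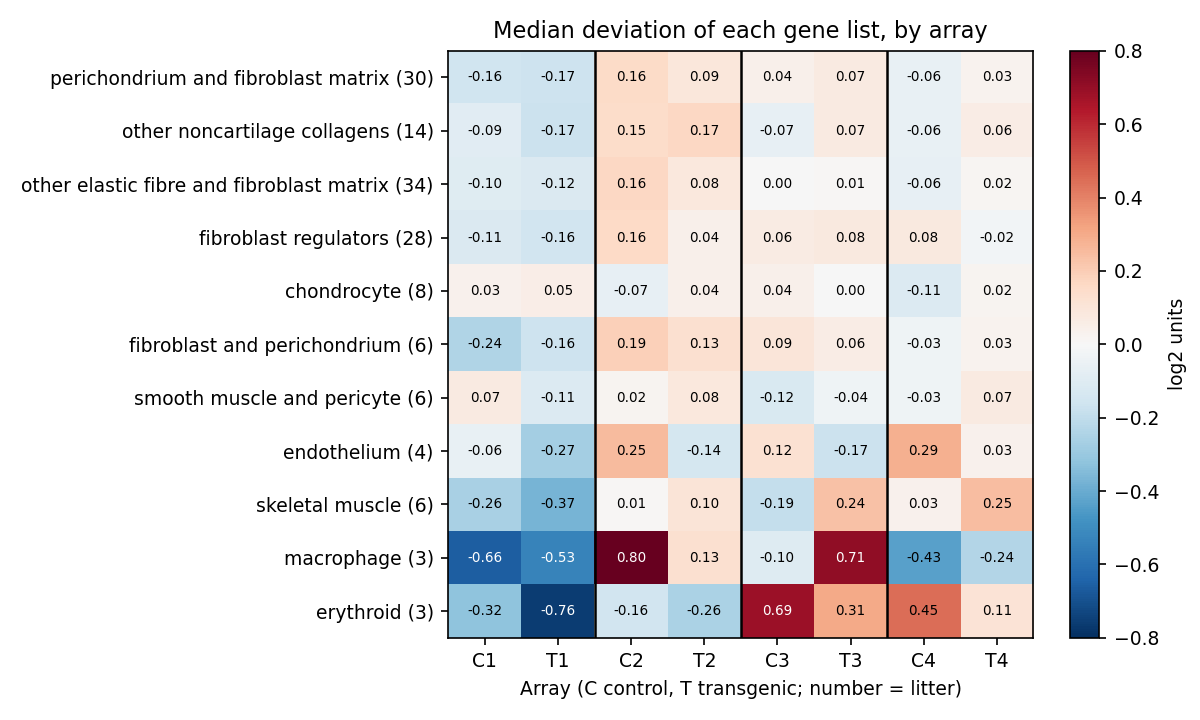
Median deviation (log2 units, colour and printed value) of each gene list with at least 3 tested genes, by array (C control, T transgenic, with the litter number); the number of tested genes is in brackets. The matrix genes are at -0.16 and -0.17 in litter 1, where skeletal muscle, macrophage and erythroid markers are low too and chondrocyte markers are at 0.03 and 0.05.

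The genes outside the list whose level followed its median deviation most closely over the 8 arrays, among 10983 compared, are given as a description of these pools. The 10 closest were Angptl1, Thbs2, Adamts5, Slc40a1, Pdzd2, Tnmd, Adamtsl1, Ahnak2, Ptgfrn and Aff4, with Pearson r between 0.96 and 0.99 and Spearman rho between 0.86 and 1.00. Thbs2 is thrombospondin 2, a matricellular protein of fibroblasts, and Adamts5 a matrix protease. In litter 1 their log2 deviations lay between -0.57 and -0.19. Their genotype estimates lay between -0.03 and 0.04.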

How the data were processed

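Each of the 8 pools was hybridised to 1 oligonucleotide array of 45101 probe sets. The values are MAS5 signal intensities on a linear scale, deposited by the authors, with MAS5 named in the submitters' processing notes. Their trimmed mean was 500 on every array. After 64 manufacturer controls were left out, log2(signal + 32) was taken for 45037 probe sets, and the 22518 with a mean signal above the median of 105.884 were tested in limma 3.58.1 (R 4.3.3) with a mean-variance trend and Benjamini-Hochberg adjustment over all of them. Symbols came from the platform annotation: 34945 probe sets had 1, 932 several and 9160 none, and the brightest probe set with 1 symbol stood for a gene.

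The labels say that the embryos of each of 4 litters were grouped by genotype, and same-numbered control and transgenic samples share an identifier in their descriptions, so same-numbered pools were taken as 1 litter and as paired. Deviations of same-litter pools correlated at 0.28, 0.17, 0.04 and 0.14 in litters 1 to 4. In litter 3 this was below the 0.089 of its control with the transgenic pool of litter 2. The genotype fit reported has no litter block, so it does not use this pairing, and the spread behind its intervals includes differences between litters. The fit with the block, which uses the pairing, is an alternative. With the block the unadjusted p in limma fell from 0.33 to 0.064 for Eln and from 0.54 to 0.067 for Col8a1. P-values measure the spread between these pools, and 4 arrays per group limit the precision.

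All 33 genes of the list are named. From other lists up to 3 genes with the smallest p, defining markers and the 10 genes most alike are named. The genes and lists were chosen with earlier results of these data known. The litter test, the next brightest probe sets and the omission of whole litters were added after seeing the data. The fits were tested on simulated data. Of probe sets changed 1.5-fold between genotypes 50.8% were recovered, and of those shifted 2-fold in litter 1 22.4%. The simulated spread was that of the fit without a litter block, drawn for each array on its own, so litter differences counted as noise between arrays. The simulated sets held 22518 probe sets of any brightness above the limit, and both shares depend on the spread simulated between arrays. They were not computed for the genes of the list, so they do not give the power for these genes in either comparison. Other alternatives were the added constant, the filter, quantile normalization, Xist as a covariate, other probe sets and leaving out arrays.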

Additional observations from a re-analysis of the deposited data

Results flagged for a closer look

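In 3 of 64 gene and group combinations checked, 1 array stood far from the other 3 of its group by Dixon's test at 95%, which chance gives in about 1 in 20 groups. In each it was the transgenic pool of litter 1. Col1a2 had a signal of 33936 there, against 38954 to 39649 in the other transgenic pools. Col5a1 had a signal of 12204, against 14900 to 15319. Fap had a signal of 5790, against 6693 to 6820.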

How the results depend on the processing

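Over all probe sets, the genotype comparison called 0 in limma, and 1 with Xist as a covariate and 0 to 1 when 1 array was left out (Xist itself, without the transgenic array of litter 4). With the litter as a replicate block no call changed: the lowest adjusted p of the 30 genes was 0.89. The median of the 30 was 0.01, between -0.04 and 0.09 with 1 array left out and 0.08 with Xist as a covariate. Single estimates near 0 changed sign. With Xist as a covariate Col8a1 was at 0.072, Col14a1 0.084, Fbln2 0.15, Fbln5 0.036, Mfap4 0.076, Mfap5 0.027 and Fap 0.081. Under quantile normalization Col6a1 was at -0.029. Without litter 1 Col14a1 was at 0.0095, Fbln2 0.030 and Mfap4 0.060. With 1 array left out the ranges were Col1a1 -0.020 to 0.22, Col5a1 -0.023 to 0.11, Col6a1 -0.028 to 0.037, Col6a2 -0.051 to 0.0068, Col8a1 -0.34 to 0.045, Col12a1 -0.059 to 0.10, Col14a1 -0.12 to 0.11, Fbn2 -0.012 to 0.090, Fbln2 -0.12 to 0.087, Fbln5 -0.21 to 0.052, Mfap4 -0.11 to 0.11, Mfap5 -0.14 to 0.17, Postn -0.041 to 0.092, Tnc -0.012 to 0.11, Thy1 -0.19 to 0.064, Pdgfra -0.028 to 0.064, Dpt -0.14 to 0.010, Fap -0.060 to 0.075 and Prrx1 -0.17 to 0.014. The cause was not tested.

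The litter comparison called 109 probe sets, 30 with no filter, 10 without litter 1, 286 without litter 3 and 70 without litter 4. Of the 30 genes it called 2, and 1 with no filter, 0 without litter 1, 6 without litter 3 (with Col1a1, Eln, Fbln5 and Mfap4) and 3 under quantile normalization (Col1a1 gained). At an unadjusted p under 0.05 it gave 18, and 5 without litter 1 and 22 under quantile normalization.

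Among the pair correlations, quantile normalization gave 0.65 for Col1a1 with Col3a1, which no longer passed, and 0.77 for Col6a1 with Col6a2, 0.78 for Col6a1 with Col6a3 and 0.73 for Eln with Fbln5, which then passed. Centred by group, Col6a1 with Col6a3 passed at 0.84. Centred by litter as a replicate block, Col1a1 was at 0.75 with Col1a2, 0.76 with Col3a1 and 0.26 with Postn, and Col5a1 with Col5a2 at 0.82. The pools of a litter are then mirror values, so the permutation test does not apply to these centred values. Without litter 1 the same 4 were at 0.63, 0.60, 0.66 and 0.81 and did not pass. With 1 array left out, r ranged from 0.74 to 0.92, 0.70 to 0.90, 0.80 to 0.93 and 0.89 to 0.95 for these 4, from 0.68 to 0.85 for Col6a1 with Col6a3 and from 0.57 to 0.88 for Eln with Fbln5.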

Other observations

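The genes whose level ran most opposite to the median deviation of the 30 matrix genes over the 8 arrays were of other kinds. Mthfd2, an enzyme of mitochondrial one-carbon metabolism, had r = -0.97 and a deviation of 0.39 in litter 1, with an adjusted p of 0.046 for litters in limma. Gars, a glycyl-tRNA synthetase, had r = -0.97 and a deviation of 0.19, and Mcm2, a subunit of the replicative helicase, had r = -0.95 and a deviation of 0.21. These genes were chosen from 10983 for this pattern, so the values are a description.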
